A study of Homo sapiens with 8 samples.

Results

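VCAM1 and ICAM1, the genes of a pair of leukocyte adhesion molecules, were followed in RNA-seq libraries of LX-2 cells, an immortalized human hepatic stellate cell line. They are 2 of the 25369 genes in the deposited tables and were selected on their counts and FPKM in these 8 libraries, including the difference between the matrices and the time course, so these values are described here without a test. The wild type cells were grown in serum-containing DMEM on polyacrylamide hydrogels coated with fibronectin. The hydrogels were soft (2 kPa, near normal liver) or stiff (40 kPa, near cirrhotic liver), and cells were collected after 2 or 4 days. Each of the 4 conditions had 2 libraries, 8 in all, described as independent experiments. No inflammatory cytokine is named in the culture conditions, all conditions share the fibronectin coat and the serum, and a single cell line stands for the stellate cell.

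VCAM1 and ICAM1 encode cell surface proteins of the immunoglobulin superfamily that hold passing leukocytes. VCAM1 is bound by integrins built from ITGA4 or ITGA9 with ITGB1, and ICAM1 by the leukocyte integrins built from ITGAL or ITGAM with ITGB2. Both genes are classical targets of NF-kB in cells exposed to TNF or IL-1, interferon gamma adds to ICAM1, and in injured liver both are made by endothelial and stellate cells.

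Their promoters are shown because members of the same cytokine-induced gene groups are compared further on. The sequences are the 250 bases before the RefSeq start (RefSeq table on GRCh38.p14, each matched exactly to GRCh37), written 5' to 3' on the plus strand, which is the strand of both genes. For VCAM1 the window is chr1:101185048-101185297, and for ICAM1 it is chr19:10381546-10381795 on GRCh37. Capitals mark letters that matched an NF-kB form, the STAT form or the TATA box on either strand.
VCAM1: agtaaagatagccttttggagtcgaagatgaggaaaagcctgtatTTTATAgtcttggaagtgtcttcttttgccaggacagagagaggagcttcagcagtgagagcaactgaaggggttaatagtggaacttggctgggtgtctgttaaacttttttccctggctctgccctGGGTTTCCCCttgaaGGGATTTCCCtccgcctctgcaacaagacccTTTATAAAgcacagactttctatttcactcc
ICAM1: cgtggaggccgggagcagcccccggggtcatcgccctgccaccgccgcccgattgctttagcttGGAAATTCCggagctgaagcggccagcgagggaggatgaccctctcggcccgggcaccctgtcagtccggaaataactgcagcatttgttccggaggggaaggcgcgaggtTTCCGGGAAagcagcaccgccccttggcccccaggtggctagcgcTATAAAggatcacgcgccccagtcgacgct
The VCAM1 window was 46.0% G and C with 2 CpG, and the ICAM1 window 66.0% with 23 CpG. The last 27 bases of the ICAM1 window lie after the start that GENCODE gives.

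With positions counted back from the RefSeq start, VCAM1 held a match to the NF-kB consensus (GGGATTTCCC, -62 to -53), which 5.21% of 35116 promoter windows of this length held. A second NF-kB form, GGGNNTCCCC, lay beside it at -77 to -68 and was found in 2.55% of the windows. This form was added to the search after the VCAM1 sequence had been seen. ICAM1 held the form GGAANNTCC at -186 to -178 (3.84% of windows) and the STAT form TTCNNNGAA at -75 to -67 (6.57% of windows). The interferon regulatory factor form GAAANNGAAA was present in VCAM1 on the minus strand at -15 to -6 (3.02% of windows). The Sp1 form GGGCGG was present in ICAM1 on the minus strand at -206 to -201 and -59 to -54 (42.6% of windows). TATAAA stood at -29 to -24 in VCAM1 and at -30 to -25 in ICAM1 (10.7% of windows), and in VCAM1 2 further matches on the minus strand began at -205 and -31, the second overlapping the plus-strand match. The AP-1 form TGACTCA (4.2%), the CRE form TGACGTCA (1.65%), the TEAD form GGAATG (11.9%) and the GATA form AGATAA (9.17%) were searched on both strands and matched neither window. A match is a description of letters and not of binding.

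Each library held 19955975 to 27263935 counts (median 22598474). The libraries of the stiff matrix at 4 days stood apart, with a coefficient of variation between replicates of 31.2%, against 4.28% to 12.3% in the other conditions. The values of VCAM1 and ICAM1 are therefore also given with 1 of these libraries left out. For the counts of the cytokine-induced gene groups, the direction of the shift is given. Of the stellate markers, VIM (2016 to 5180 CPM as condition means), COL1A1, TAGLN, PDGFRB and ACTA2 were present, while the condition means of DES, LRAT and GFAP stayed under 0.4 CPM. The defining endothelial markers were at or near 0, with LYVE1 and CLEC4G at 0 in every library and PECAM1 at condition means of no more than 0.137 CPM, although TIE1 was present at 47.6 to 74.2 CPM. The 10 endothelial markers summed to 71.5 to 81.4 CPM in soft against 75.1 to 78.8 CPM in stiff cultures of 2 days, and to 50.7 to 58.4 against 49.5 to 54.3 CPM at 4 days, so these sums overlapped within each day. Among the 9 leukocyte markers CD3E and CD163 had 0 counts and condition means of PTPRC stayed at or under 2.54 CPM, while CD68, a lysosomal protein, lay at 85.6 to 115.5 CPM. Their sum was 90.1 to 95.6 CPM in soft against 106.8 to 109.0 CPM in stiff cultures of 2 days, and 106.6 to 109.4 against 117.5 to 126.8 CPM at 4 days. It was thus higher in the stiff libraries of each day, and its part in the results was not tested. In bulk RNA, fewer cells with a transcript and less of it per cell cannot be told apart.

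VCAM1 (chr1:101185298-101204601, plus strand, GRCh37) was a low transcript in every condition except the soft matrix at 4 days. Its counts on the soft matrix were 78 and 68 at 2 days and 402 and 445 at 4 days. On the stiff matrix they were 14 and 30 at 2 days and 25 and 5 at 4 days. The soft libraries of 4 days thus stood above all others, and no soft library of either day overlapped a stiff one. In CPM, counts scaled to library size with edgeR's TMM factors, the 2-day means were 2.60 ± 0.212 (soft) and 0.922 ± 0.473 (stiff; SD, n = 2 each). The 4-day means were 19.4 ± 0.924 CPM (soft) and 0.758 ± 0.664 CPM (stiff). The order of levels was soft 4 days, soft 2 days, stiff 2 days, stiff 4 days, and the last 2 overlapped. Counting error alone is large for the lowest library, whose 5 counts have an exact 95% Poisson interval of 1.62 to 11.7, against 16.2 to 36.9 for the 25 counts of its replicate. Such intervals cover counting error only. Per length, in FPKM, 47.6% and 47.8% of the 14570 genes tested lay below VCAM1 in the soft libraries of 4 days, and 11.5% and 4.0% in the stiff ones.

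ICAM1 (chr19:10381769-10397291, plus strand, GRCh37) was present in every library and followed a narrower range. Its counts on the soft matrix were 771 and 728 at 2 days and 1172 and 1251 at 4 days. On the stiff matrix they were 208 and 351 at 2 days and 408 and 363 at 4 days. Here too both soft libraries of a day lay above both stiff libraries, but the stiff libraries of 4 days lay above those of 2 days. Soft cultures averaged 26.7 ± 0.671 CPM at 2 days and 55.5 ± 1.22 CPM at 4 days, and stiff cultures 11.7 ± 4.22 and 20.5 ± 0.615 CPM (SD, n = 2 each). The order was soft 4 days, soft 2 days, stiff 4 days, stiff 2 days, and no neighbours in it overlapped. ICAM1 exons share 815 of 3448 bases with ICAM4-AS1 and 61 with LIMASI, a pair of antisense RNAs with no entry in the tables, and since the strand setting of the counting is not given in the sources used here, reads from the antisense strand could be part of the ICAM1 counts. VCAM1 shares no exon base with another annotated gene.

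**Figure D1:**
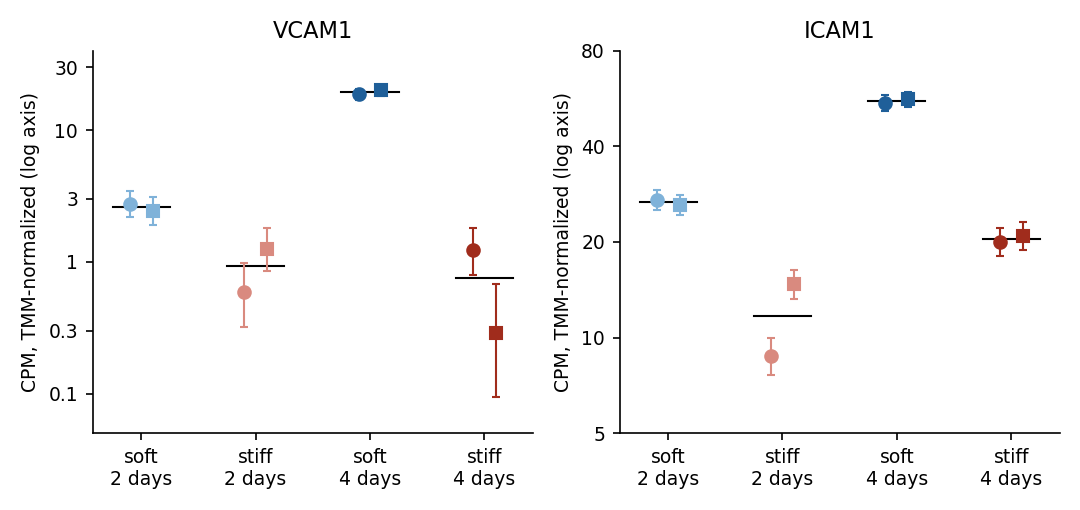
Expression of VCAM1 and ICAM1 in each library, in TMM-normalized CPM on a log axis, by matrix and day. Points are libraries (circle replicate 1, square replicate 2), bars are 95% Poisson intervals of the count, and black lines are means of 2 libraries. VCAM1 ranges from 0.288 to 20.1 CPM and ICAM1 from 8.73 to 56.4 CPM, with every soft library above the stiff libraries of its day.

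After 2 days, VCAM1 was lower on the stiff matrix by a log2 fold change of -1.49 (SE 0.474), a 2.80-fold difference. Between single libraries the soft value was 1.95 to 4.67 times the stiff one. ICAM1 was lower by -1.19 on the same log2 scale (SE 0.225, 2.28-fold), with 1.78 to 3.11 times between single libraries. Over all genes, edgeR's quasi-likelihood test at an adjusted p under 0.05 called 0 of 14570 (0.0%), 411 had an unadjusted p under 0.05 (2.82%), and DESeq2 called 6 genes higher and 22 lower. The 0 belongs to the fit of all 8 libraries, in which the 4 conditions share 1 estimate of the spread. The same test on the 4 libraries of 2 days alone called 314 genes higher and 353 lower of 14290. A gap between the libraries of the kind seen for VCAM1 and ICAM1 was common, as 22.4% of genes tested had both stiff libraries below both soft ones. Leaving out the second stiff library moved VCAM1 to -2.13, and leaving out the first or the second moved ICAM1 to -0.86 or -1.61.

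After 4 days the values of the genes lay further apart. VCAM1 had a stiff-minus-soft log2 difference of -4.62 (SE 0.479), 24.6-fold, the 6th largest fall among 14570 genes. The soft value was 15.3 to 69.7 times the stiff one between single libraries, a width set by the 25 and 5 stiff counts. Without the stiff library that had 25 counts the log2 fold change was -6.04, and without the one that had 5 counts it was -3.97. ICAM1 was lower by -1.44 (SE 0.224, 2.71-fold), with 2.62 to 2.82 times between single libraries, and stayed between -1.46 and -1.40 when any 1 library was left out. Over all genes edgeR called 0.247% at this day (5 or 0.0343% higher and 31 or 0.213% lower), and 1010 (6.93%) had an unadjusted p under 0.05. The libraries of 14.0% of genes did not overlap and were lower on the stiff matrix at 4 days, and 6.14% of genes were so at both days, as VCAM1 and ICAM1 were.

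Over time on the soft matrix VCAM1 was higher at 4 than at 2 days by 2.90 on the log2 scale (SE 0.403), 7.46-fold, the 22nd largest rise among the genes tested. ICAM1 was higher by 1.06 (SE 0.22), 2.08-fold. The libraries of the days did not overlap for either gene, with 6.83 to 8.2 times between single libraries for VCAM1 and 2.01 to 2.15 times for ICAM1. Of all genes tested, 27.4% were called in this comparison (14.1% higher, 13.3% lower), and 38.5% had non-overlapping higher libraries at 4 days.

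The courses on the stiff matrix differed. VCAM1 differed by -0.23 (SE 0.574) between the days and its libraries overlapped, so that no direction could be read at this depth. Without either the second stiff library of 2 days or the second of 4 days its sign turned, to 0.40 in both cases, and without the first of 4 days it was -1.66. ICAM1 was higher at 4 days by 0.80 (SE 0.227), 1.75-fold, with 1.36 to 2.39 times between single libraries. It moved to 0.48 and 1.22 without the first and the second stiff library of 2 days. This comparison called 27.6% of all genes (14.0% higher, 13.7% lower), and 31.6% had non-overlapping higher libraries.

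The stiffness difference of VCAM1 differed between 4 and 2 days by -3.13 on the log2 scale (SE 0.694), the 23rd most negative change among the genes tested, and that of ICAM1 by -0.25 (SE 0.314). No gene was called for this change by edgeR's test (0 of 14570, 0.0%, with 284 at an unadjusted p under 0.05 and 1 higher and 2 lower called by DESeq2). For ICAM1 the sign of this change turned to 0.17 without the second stiff library of 2 days. These comparisons share libraries, the soft ones of 4 days entering both the stiffness difference of that day and the time course on the soft matrix.

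**Figure D2:**
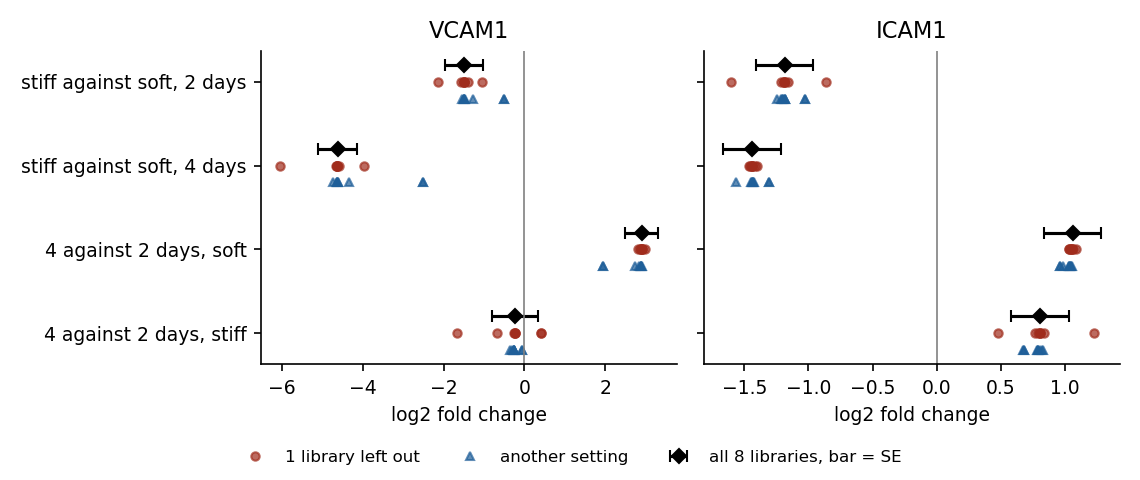
Log2 fold changes of VCAM1 and ICAM1 in the 4 comparisons of matrices and days. Diamonds are the fit of all 8 libraries with its standard error, circles leave out 1 library, and triangles are other normalizations, filters, tools or units. The 4-day stiffness difference of VCAM1 runs from -6.04 to -2.51 and that of ICAM1 from -1.56 to -1.30.

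ICAM1 exceeded VCAM1 per length in every library, but by an amount that depended on the condition. The ratio of their FPKM was 9.75 and 10.6 on the soft matrix at 2 days and 2.88 and 2.77 at 4 days. Stiff cultures had ratios of 14.7 and 11.5 at 2 days and 16.1 and 71.6 at 4 days. The soft libraries of 4 days were the ones in which the genes came closest, and the ratio of 71.6 belongs to the library with 5 VCAM1 counts.

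Of 21 other leukocyte adhesion molecules listed, 16 were tested and 0 passed edgeR's test for stiffness at 2 or at 4 days, beside 0.0% and 0.247% of all genes. A fit of the 4 libraries of 2 days alone called 1 higher and 1 lower, against 314 higher and 353 lower of 14290 genes in that fit. The median log2 fold change of the 16 was -0.12 at 2 days, against 0.01 over all genes, and 0.01 at 4 days, against 0.02. Both stiff libraries lay below both soft ones for 6 of the 16 at 2 days and 5 at 4 days, a gap that 22.4% and 14.0% of all genes showed. The opposite gap was seen for 3 at each day. F11R and JAM2 (named after its values were seen) had the lower gap at both days, with -0.54 and -0.72 at 4 days (adjusted p = 0.323 and 0.224 by edgeR). ICAM2, a further LFA-1 ligand, was -0.12 at 4 days (adjusted p = 0.938 by edgeR), and ICAM3, the form typical of resting leukocytes, 0.36 (adjusted p = 0.856). SELE, the endothelial selectin that usually accompanies VCAM1 and ICAM1 in cytokine-treated endothelium, had 1 count in 1 library and 0 in the other 7. Over time, 5 rose and 1 fell on each matrix (37.5% called, against 27.4% and 27.6% of all genes on the soft and the stiff matrix). On the soft matrix the junctional molecule F11R rose by 1.01 (adjusted p = 0.00353), the cell adhesion molecule MCAM by 0.90 (adjusted p = 0.0076) and CD47, which binds SIRP alpha on phagocytes, by 0.79 (adjusted p = 0.0049, edgeR). Stiff cultures showed rises of 0.59, 1.16 and 0.65 in the same order (adjusted p = 0.0205, 0.00369 and 0.00926).

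ICAM4, the red cell form, and ICAM5, the neuronal form, are the next genes after ICAM1 on chromosome 19, 340 and 3337 bases beyond its end. ICAM5 fell over time on both matrices, from counts of 196 and 146 to 38 and 42 on the soft matrix (log2 -1.73, adjusted p = 0.00292 by edgeR) and from 92 and 92 to 43 and 36 on the stiff matrix (-0.88, adjusted p = 0.0259). ICAM1 was higher at 4 days in the same libraries. ICAM4 had 2 to 21 counts and passed no test. Among the 3 nearest protein-coding genes on each side of VCAM1 and ICAM1, none of those tested passed edgeR's test for stiffness at either day. Over time SLC30A7, a zinc transporter gene 157031 bases after VCAM1, rose by 1.38 on the soft (adjusted p = 0.00183) and 0.93 on the stiff matrix (adjusted p = 0.00557). DNMT1, the maintenance DNA methyltransferase gene 39807 bases from ICAM1, fell (-0.74 and -0.85, adjusted p = 0.0489 and 0.031, edgeR).

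Of 9 integrin subunits that form the counter-receptors, 6 were tested and 0 passed the stiffness tests. ITGB1 was the abundant one, at 982 to 1395 CPM, and its partner for VCAM1 binding, ITGA4, lay at 3.53 to 5.27 CPM. ITGA4 had 124 and 17 counts in the stiff libraries of 4 days, a replicate gap like that of VCAM1. ITGAL, the LFA-1 subunit, had 0 to 4 counts a library and was not tested. ITGB2 rose over time on both matrices, by 1.20 (adjusted p = 0.0485) and 1.40 (adjusted p = 0.023, edgeR), the rise on the soft matrix being called in 2 of 10 other settings, and its stiffness difference at 4 days was 1.11 (adjusted p = 0.46).

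The proteins that tie the adhesion molecules' tails to actin had 0 of 8 genes called for stiffness at either day (0.0% and 0.247% of all genes). All 8 were higher on the stiff matrix at 2 days, with a median of 0.26 against 0.01 over all genes. Of these, 7 had both stiff libraries above both soft ones, a gap not counted over all genes. The 4-day median was 0.13, against 0.02, and 1 had this gap. Over time 2 of 8 were called on the soft and 3 of 8 on the stiff matrix, where 27.4% and 27.6% of all genes were called. EZR (ezrin) rose by 0.51 and 0.52 on the soft and stiff matrix (adjusted p = 0.0262 and 0.0252) and CTTN (cortactin) fell (-0.75 and -0.72, adjusted p = 0.00662 and 0.00786, edgeR). FLNA (filamin) fell by 0.83 on the stiff matrix (adjusted p = 0.0353).

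Of 8 shedding proteases and regulators, 1 fell with stiffness at 4 days (12.5%, against 0.247% of all genes). This was MMP9, a gelatinase able to cleave ICAM1, with 19.2 ± 2.41 CPM in soft and 2.19 ± 0.321 CPM in stiff cultures (SD, n = 2 each, log2 -3.13, adjusted p = 0.0151 by edgeR). ADAM17, the main sheddase of VCAM1, was -0.51 (adjusted p = 0.856). Over time TIMP3, the inhibitor of ADAM17, rose by 1.82 and 1.62 (adjusted p = 0.00104 and 0.000846), while RHBDF1 and RHBDF2, which carry ADAM17 to the surface, fell (-1.31 and -1.08 on the soft, -1.40 and -1.39 on the stiff matrix, adjusted p = 0.00149, 0.00536, 0.0014 and 0.00273). ADAM8, a related protease, fell (-1.04 and -1.47, adjusted p = 0.0147 and 0.00604, edgeR). The calls over time were 4 of the 8 on each matrix (50.0%, against 27.4% and 27.6% of all genes).

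Of the inducing cytokines, TNF was near 0 and IL1B was present. TNF had 0 to 4 counts a library and was not tested, and 3 of the 10 listed cytokines were, with 0 passing edgeR's test for stiffness. At 2 days DESeq2 called 1 of them lower, against 6 higher and 22 lower of 14669 genes. A fit of the 4 libraries of that day alone called 2 lower, against 314 higher and 353 lower of 14290 genes. At 2 days IL1B averaged 48.3 ± 8.27 CPM in soft and 21.7 ± 2.84 CPM in stiff cultures (SD, n = 2 each, log2 -1.15, SE 0.167), with both stiff libraries below both soft ones and an adjusted p of 0.334 by edgeR. At 4 days it was -0.37 (adjusted p = 0.736 by edgeR). All 3 tested cytokines were lower on the stiff matrix at that day, with a median of -1.11. Each had both stiff libraries below both soft ones, a gap that 14.0% of all genes showed. IL1A rose over time by 1.63 on the soft and 2.03 on the stiff matrix (adjusted p = 0.0103 and 0.01), and IL1B by 0.75 on the stiff matrix (adjusted p = 0.0158, edgeR).

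Of 21 receptors and adaptors, 0 passed for stiffness (0.0% and 0.247% of all genes at 2 and 4 days). Their medians were -0.12 and -0.14. At each day 10 of the 21 had both stiff libraries below both soft ones, a gap that 22.4% and 14.0% of all genes showed. The opposite gap was seen for 2 of them at 2 days and for 1 at 4 days. The TNF receptor TNFRSF1A was -0.08 at both days (adjusted p = 1.0 and 0.915), and the IL-1 receptor IL1R1 -0.06 at 4 days (adjusted p = 0.972, edgeR). TLR4, the endotoxin receptor, rose over time by 2.04 and 2.01 (adjusted p = 0.00449 and 0.00584), TLR2, a receptor for bacterial lipopeptides, by 2.51 on the soft matrix from 3 and 4 to 14 and 18 counts (adjusted p = 0.0134), and the adaptor kinase IRAK1 fell (-0.89 and -0.92, adjusted p = 0.00469 and 0.00437, edgeR). IL4R fell by 0.64 on the stiff matrix (adjusted p = 0.0323, edgeR). Over time 6 of the 21 were called on the soft and 3 on the stiff matrix (28.6% and 14.3%, against 27.4% and 27.6% of all genes).

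The 13 genes of NF-kB and its regulators had 0 calls for stiffness by edgeR (0.0% and 0.247% of all genes at 2 and 4 days), with medians of -0.11 at 2 and 0.01 at 4 days. A fit of the 4 libraries of 2 days alone called 5 lower, against 314 higher and 353 lower of 14290 genes. At that day 8 of the 13 had both stiff libraries below both soft ones, a gap that 22.4% of all genes showed. RELB and NFKB2, subunits of the non-canonical pathway, had this gap at both days, RELB (named after its values were seen) with -0.70 and -1.08 and NFKB2 with -0.47 and -0.62 (adjusted p = 0.393 and 0.27 at 4 days, edgeR). RELA, the p65 subunit, was 0.12 at 4 days (adjusted p = 0.884) and NFKB1 -0.34 (adjusted p = 0.819). NFKBIA, the inhibitor that NF-kB itself induces, averaged 80.1 ± 5.35 CPM in soft and 48.6 ± 17.5 CPM in stiff cultures of 4 days (SD, n = 2 each, log2 -0.72, adjusted p = 0.493 by edgeR). Over time, 3 fell on the soft and 4 on the stiff matrix (23.1% and 30.8%, against 27.4% and 27.6% of all genes called). These included the kinase subunits IKBKB (-0.66 and -0.46) and IKBKG (-1.09 and -0.80), the cofactor BCL3 (-0.88 and -0.81) and, on the stiff matrix, NFKB2 (-0.61).

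Among 17 other transcription factors, 1 fell and 1 rose with stiffness at 4 days (11.8%, against 0.247% of all genes). IRF1, the interferon regulatory factor that cooperates with NF-kB at VCAM1, fell from 38.5 ± 1.42 to 17.8 ± 0.802 CPM (SD, n = 2 each, log2 -1.11, adjusted p = 0.0362 by edgeR). FOS, a subunit of AP-1, rose from 3.02 ± 0.316 to 12.6 ± 0.493 CPM (log2 2.06, adjusted p = 0.0106), and on the stiff matrix it also rose with time by 2.23 (adjusted p = 0.00123). Its partner JUN was 0.25 for stiffness at 4 days (adjusted p = 0.831) and fell over time (-0.57 and -0.55, adjusted p = 0.0209 and 0.0241). Over time 5 of the 17 were called on the soft and 6 on the stiff matrix (29.4% and 35.3%, against 27.4% and 27.6% of all genes). CEBPB (-1.27 and -1.04) and KLF2, an anti-inflammatory factor (-1.10 and -0.85), fell over time, while SP3 rose by 0.89 on the soft matrix (adjusted p = 0.0172, edgeR).

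Known targets of inflammatory cytokines, as VCAM1 and ICAM1 are, were among the genes called at 4 days. The lists of such genes, here and in the next paragraph, were chosen with earlier results of these data known. Their shares beside those of all genes are therefore a description and not a test of the lists. Of 22 tested genes known to be induced by TNF or IL-1, 6 fell with stiffness at 4 days (27.3%, against 0.247% of all genes) and 0 rose. Their median log2 fold change was -1.46, against 0.02 over all genes. CCL5, a T cell and monocyte chemokine, fell from 27.8 ± 4.05 to 2.20 ± 0.0603 CPM (log2 -3.66, adjusted p = 0.0106 by edgeR). The neutrophil chemokines CXCL8 (251 ± 13.7 to 65.0 ± 1.77 CPM, -1.95, adjusted p = 0.0155), CXCL6 (-2.37, adjusted p = 0.0331) and CXCL5 (-1.44, adjusted p = 0.0362) fell as well. So did the growth factor CSF2 (-2.13, adjusted p = 0.0331) and the TNF receptor adaptor TRAF1 (-1.80, adjusted p = 0.0261). The monocyte chemokine CCL2 was -2.55 (adjusted p = 0.1) and IL6 -1.05 (adjusted p = 0.208), both with non-overlapping libraries. At 2 days 0 were called by edgeR and 7 by DESeq2, the median was -0.87, and 21 of 22 had both stiff libraries below both soft ones, a gap that 22.4% of all genes showed. A fit of the 4 libraries of 2 days alone called 16 lower, against 314 genes higher and 353 lower of 14290 tested in that fit. Over time on the soft matrix 7 rose, among them CXCL6 (1.91), CCL5 (1.75) and CXCL8 (1.15), with adjusted p of 0.00391, 0.00491 and 0.00687. On the stiff matrix 3 rose (IL6, CXCL8 and the pentraxin PTX3) and 3 fell (CSF2, CXCL3 and TNFAIP2, the last named after its values were seen). Calls over time were 31.8% of the group on the soft and 27.3% on the stiff matrix, against 27.4% and 27.6% of all genes.

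Of 26 tested interferon-induced genes, 9 fell with stiffness at 4 days (34.6%, against 0.247% of all genes) and 0 rose, with a median of -1.60. OASL, OAS1 and OAS2, of the antiviral oligoadenylate synthetase family, fell (-3.34, -3.35 and -2.40, adjusted p = 0.00882, 0.0151 and 0.015). IFIT1, IFIT2 and IFIT3, which bind viral RNA or each other, fell (-1.23, -2.38 and -1.60, adjusted p = 0.0295, 0.0151 and 0.0106), and IFI44 fell by 2.49 (adjusted p = 0.0106, edgeR). The T cell chemokine CXCL10 had 55 and 44 counts on the soft and 1 and 1 on the stiff matrix, and IFI44L had 43 and 52 against 0 and 2 (adjusted p = 0.0331 and 0.0362). At 2 days 0 were called by edgeR and 4 by DESeq2, and the median was -0.86. The fit of the 4 libraries of 2 days alone called 16 lower, against 314 genes higher and 353 lower of 14290. Of the 26, 25 had both stiff libraries below both soft ones, a gap that 22.4% of all genes showed. Over time on the soft matrix 16 of 26 rose (61.5%, against 27.4% of all genes called in either direction), with a median of 1.04. On the stiff matrix 5 rose and 1, OASL, fell (-0.91, adjusted p = 0.0264), with a median of 0.26. These 6 calls were 23.1% of the group, against 27.6% of all genes. GBP2, an interferon-induced GTPase, rose on both (1.29 and 1.68, adjusted p = 0.00311 and 0.00178).

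The 4-day counts of these groups depended on the libraries in the fit. More genes of both groups fell without either stiff library of 4 days, and fewer without any 1 library of the other conditions. Both shifts were also seen over all genes. A fit of the 4 libraries of 4 days alone called 0 in both groups, and 0 higher and 0 lower of 13888 genes. DESeq2 called 13 in each group, and 50 genes higher and 114 lower of 15817. The fit with the replicate number as a block called 2 and 6, and over all 14570 genes 3 higher and 11 lower. On the soft matrix over time 7 and 16 rose in the fit of all 8 libraries. Fewer rose without any 1 soft library, and more without either stiff library of 4 days, again as over all genes. MMP9, IRF1 and FOS also lost their call for stiffness without any 1 soft library, and IRF1 without either stiff library of 2 days.

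**Figure D3:**
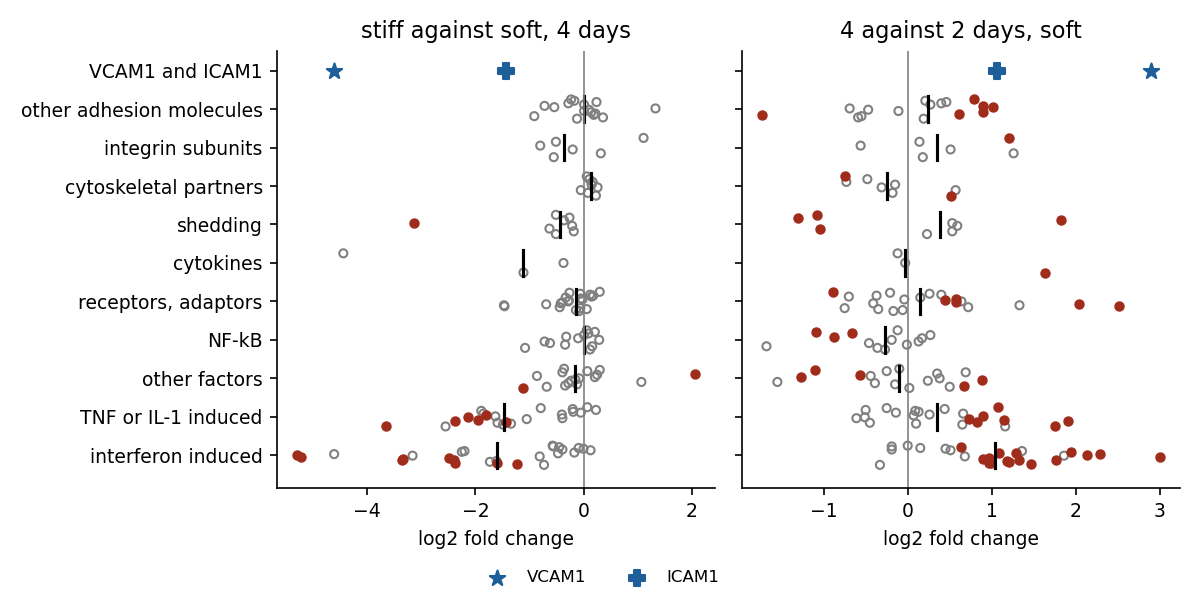
Log2 fold changes of VCAM1, ICAM1 and the tested genes of 10 lists, for stiffness at 4 days (left) and for time on the soft matrix (right). Filled points passed an adjusted p of 0.05 by edgeR, open points did not, and black bars are list medians; VCAM1 and ICAM1 are drawn without a test. On the left only the 2 lowest lists have medians below -1.4, at -1.46 and -1.60, and the cytokine list of 3 genes lies at -1.11.

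The genes most similar to each member were ranked by Pearson's r of log2 CPM over the 8 libraries, among 12043 genes whose mean log2 CPM was 1 or more. These values describe the 4 conditions and carry no test. For VCAM1 the 10 nearest were OAS2 (r = 0.977), CXCL5, FAXDC2, IFIT2, SPIDR, IFIT3, COL1A2, ICOSLG, CTSS and DDX60 (r = 0.956). For ICAM1 they included CXCL8 (r = 0.984), IL6, XAF1, GABARAPL1, CASP1, C1R, SOD2, TNFRSF9 and CD82 (r = 0.962). The lists had no gene in common, and 4 of the first and 3 of the second were in the TNF-, IL-1- or interferon-induced lists. VCAM1 and ICAM1 had an r of 0.866 with each other, which ranked ICAM1 108th for VCAM1 and VCAM1 136th for ICAM1.

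Likeness in shape was not likeness in size. OAS2, nearest to VCAM1, had 4-day means of 10.9 CPM (soft) and 2.04 CPM (stiff), and SPIDR went from 49.8 to 39.5 CPM. ICOSLG, the ICOS ligand, went from 7.13 to 2.44 CPM, and the cathepsin gene CTSS from 13.1 to 3.41 CPM. CXCL8, nearest to ICAM1, is given above. TNFRSF9, a costimulatory receptor, went from 17.8 to 5.11 CPM at 4 days and CASP1, the IL-1 beta-processing caspase, from 6.41 to 1.89 CPM, whereas GABARAPL1 went from 36.0 to 27.8 CPM.

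**Figure D4:**
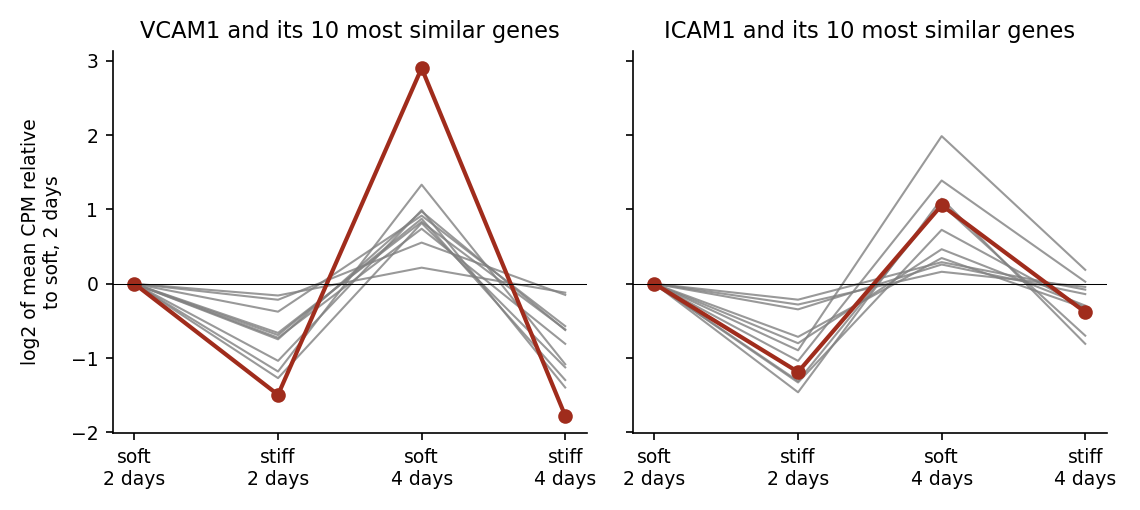
Mean CPM in each condition relative to the soft matrix at 2 days, on a log2 scale, for VCAM1 and for ICAM1 (red) and the 10 genes nearest to each by Pearson's r over the 8 libraries (grey). VCAM1 lies 2.90 above its starting level on the soft matrix at 4 days, beyond all 10 of its neighbours, while ICAM1 at 1.06 lies among its own.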

How the data were processed

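Whole-number read counts per gene and FPKM of the same genes were deposited by the authors for 8 libraries; no column was left without a sample. Per the labels' processing notes, reads were trimmed with Trim Galore, mapped to hg19 with STAR 2.7.1a and counted with HTSeq; bedtools 2.24.0 and DESeq2 are also named. The annotation and strand setting are not given in the sources used here. The authors' FPKM carry size factors, since 100% of 15016 genes gave 1 length in all libraries within 0.1%.

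From the counts, 14570 of 25369 genes passed edgeR's filterByExpr. The 8 libraries entered 1 quasi-likelihood fit with a term for each of the 4 conditions (R 4.3.3, edgeR 4.0.16, TMM), and a Benjamini-Hochberg adjusted p under 0.05 over all genes made a call. Standard errors come from the F statistic. DESeq2 1.42.0, limma 3.58.1 on FPKM, other scalings, filters, separate fits, a replicate block and leaving out each library were the alternatives. The tests were tested on simulated data.

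VCAM1, ICAM1 and the 10 gene lists (162 genes, 140 tested) were chosen with earlier results of these data known, and members were described without p-values. Named list genes were all those called for stiffness, up to 3 called with the largest change per list and time course, and a set of receptors, ligands and regulators. Coordinates and neighbours came from GENCODE v44lift37, promoters from RefSeq. Some genes of the lists are not reported here.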

Additional observations from a re-analysis of the deposited data

Results flagged for a closer look

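Of the genes named above, 3 lay on opposite sides over time on the matrices, with no overlap between the libraries of the days on either. OASL was 0.90 on the log2 scale on the soft and -0.91 on the stiff matrix, IFI44 0.97 and -0.45, and TRAF1 0.07 and -0.61. A further 2 had stiffness differences of opposite sign at the days: ICAM5 with -0.65 at 2 days and 0.19 at 4 days, and IKBKG, the regulatory subunit of the I-kappa-B kinase, with -0.09 and 0.21. GATA6, a list gene of few counts named after its values were seen, met both descriptions, with -1.55 and 0.87 over time on the soft and the stiff matrix and -1.36 and 1.07 for stiffness at 2 and 4 days. Its libraries held 5 to 28 counts. These differences between matrices or days were picked out by the directions of the libraries and were not tested. The share of all genes with such opposite gaps was not counted, so the numbers 3 and 2 are no result about the genes named.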

How the results depend on the processing

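The log2 fold changes of VCAM1 and ICAM1 kept their sign under every other setting tried, and with 1 library left out except where given. On log2(FPKM + 1) by limma, with or without a filter, VCAM1 was -0.50 and -2.51 for stiffness at 2 and 4 days, 1.95 over time on the soft matrix and -2.01 for the change of the stiffness difference; the added 1 is large beside its FPKM. With 1 library left out, VCAM1 ran from -2.13 to -1.05 (2 days), -6.04 to -3.97 (4 days), 2.82 to 2.98 (time, soft), -1.66 to 0.40 (time, stiff) and -4.55 to -2.47 (change), its sign over time on the stiff matrix turning without the second stiff library of 2 days (0.4037) or of 4 days (0.4017). ICAM1 ran from -1.61 to -0.86, -1.46 to -1.40, 1.03 to 1.08, 0.48 to 1.22 and -0.58 to 0.17, turning in the change without the second stiff library of 2 days (0.1678).

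Of the 140 list genes tested, 0 were called for stiffness at 2 days and 18 at 4 days (12.9%, against 0.247% of all genes). Over time 51 and 41 were called on the soft and stiff matrix (36.4% and 29.3%, against 27.4% and 27.6%), and 0 for the change. DESeq2 called 13, 29 and 2 for stiffness at 2 days, at 4 days and for the change. Over all genes it called 6 higher and 22 lower of 14669, 50 and 114 of 15817, and 1 and 2 of 20029. Fits of the 4 libraries compared called 48 and 0 for stiffness and 92 and 0 over time. Over all genes the 48 stood beside 314 higher and 353 lower of 14290, and the 92 beside 3543 higher and 3718 lower of 14331. The other 2 fits called 0 of all genes. Limma on log2(FPKM + 1) with no filter called 7 at 4 days, 26 over time on the stiff matrix and 3 for the change. Of all 25369 genes it called 15 higher and 23 lower, 1286 and 1510, and 53 and 47. With 1 library left out, the ranges were 0 to 31, 0 to 79, 5 to 94, 7 to 74 and 0 to 40. The cause of these shifts was not tested.

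Libraries carry replicate numbers, but deviations of same-numbered libraries correlated by -0.0358 and -0.49 between matrices at 2 and 4 days and by 0.0773 and 0.0246 between days, so the numbers were not taken as pairs. With the replicate number as a block, 10 list genes were called at 4 days and 22 over time on the stiff matrix. Over all 14570 genes this block gave 3 higher and 11 lower, and 1221 and 1322. VCAM1 and ICAM1 at 4 days were then -4.64 and -1.44. With the numbers crossed at 4 days on the stiff matrix, chosen after seeing the data, list calls were 0, 20, 56, 46 and 0. Over all 14570 genes the middle 3 stood beside 15 higher and 47 lower, 2281 and 2261, and 2256 and 2287. A minimum of 10 counts in every library leaves VCAM1 out, and the change of the stiffness difference cannot be had from a fit of 4 libraries. With 2 libraries a condition and 5 VCAM1 counts in the lowest, depth limits how closely its 4-day difference can be sized. P-values measure only the spread between these libraries.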
